A study of Arabidopsis thaliana with 16 samples.

Results

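HSFA2 is a heat shock transcription factor of Arabidopsis that is made in large amounts after heat and keeps the heat stress response running once it has started. Small heat shock proteins such as HSP22.0 and HSP21 and the galactinol synthase GolS1 are known in Arabidopsis as genes it can switch on. Callus is a mass of undifferentiated cells kept in culture. The comparison described here asks how cells without this factor differ from WT cells when both grow on the ground. It set HSFA2 knockout (KO) cells on the ground (G_Hsf) against wild-type (WT) cells on the ground (G_Wt), and was made on 8 of the 16 microarrays of the BRIC-17 experiment.

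G_Hsf comprised 3 arrays of cells from the T-DNA insertion line SALK_008978C, and G_Wt comprised 5 arrays of Col-0 cells. The G_Wt arrays came from 4 plates, because plate A1 was hybridized on a pair of arrays, which were averaged on the log2 scale. Both lines were in the Col-0 background, were started from hypocotyls on medium with 2,4-D, were kept in the dark in the BRIC hardware in a ground chamber, and were fixed in RNAlater after 10 days there, at a labelled age of 14 days. Each genotype was a single callus line, so plates of a genotype are replicates of that line and not of the mutation. All G_Hsf plates were in canister BRIC B, whereas the G_Wt plates were split between BRIC A (A1, A2) and BRIC B (B1, B2). The labels disagree on one G_Hsf array, B3-2, whose title gives the plate of array B3 and whose source field gives another chamber. The titles give Rep2 to G_Hsf arrays B3-2 and B5-2 and to 1 of the 2 arrays of G_Wt plate A1, and do not say what it stands for. The Rep2 arrays were taken here as a possible batch, which is partly tied to genotype. The spaceflight arrays of KO (F_Hsf, 3) and WT cells (F_Wt, 5 arrays from 4 plates) entered the same fit and are given beside the ground values as separate samples.

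The signal is the Affymetrix MAS5 intensity on the linear scale, brought to a trimmed mean of 500 on every array. Median signals nevertheless differed, with 123, 112 and 100.2 on the G_Hsf arrays and 76.1 to 108 on the G_Wt arrays, and the median log2 fold change over all probe sets was 0.12. Of 22687 probe sets tested, 12070 (53.2%) had a mean signal over 100 in at least 1 ground group, and the account of gene functions is limited to these. The median residual SD was 0.45 log2 units over 100 and 1.49 below it. A probe set was called when the limma moderated test gave a Benjamini-Hochberg adjusted p under 0.05 over all probe sets together with a change of more than 1 log2 unit. Of the callus and root founder markers, 5 of 9 on the array were over 100 (RAP2.4, also known as WIND1, LBD16, SCR, SHR and PLT1), and PLT2, LBD17, LBD18 and LBD29 were not. Of the mesophyll, xylem vessel, shoot meristem, root hair, embryo and guard cell markers, 9 of 28 were over 100 and none was called.

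The targeted gene was measured first. HsfA2 (At2g26150) had signals of 7.38, 71.2 and 76.5 on the G_Hsf arrays, against 3187, 4126, 6291 and 3750.2 on the G_Wt plates. Every G_Hsf array lay below every G_Wt plate, and all G_Hsf signals were under 100 (log2 fold change -6.94 ± 0.54 (SE), adjusted p = 1.67e-08, exact two-sided permutation p = 0.0286, the smallest that 3 against 4 allows). If arrays B3 and B3-2 come from the same plate, the permutation test is 2 against 4, and its smallest possible p is 0.0667. In spaceflight the signals were 169.7, 42 and 34.5 in F_Hsf and 5362, 5748, 9045 and 9179.8 in F_Wt (log2 fold change -6.83).

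The knockout differed from WT on the ground in 241 probe sets, 1.06% of those tested, of which 123 (0.542%) were higher and 118 (0.520%) were lower in G_Hsf. Over 100, 121 probe sets (1.00%) were called higher with a median log2 fold change of 1.35, and 117 (0.969%) were called lower with a median of -1.34. The G_Hsf arrays lay wholly above the G_Wt plates in 117 of the 121 and wholly below in 111 of the 117. Among all probe sets over 100, whether called or not, 12.3% had every G_Hsf array above every G_Wt plate and 8.30% had every G_Hsf array below. The number of higher calls depended on how arrays were scaled. With each array's median subtracted in place of the deposited scaling, 12 of the 121 higher and 102 of the 117 lower probe sets were still called, whereas quantile normalization kept 101 and 109. Without the intensity trend in the limma fit 1 probe set, HsfA2, was called. Leaving out plate A2 left 64 of the higher and 71 of the lower probe sets called, and leaving out array B5-2 left 51 and 80. With Rep2 as a block 45 and 71 were called, with arrays B3 and B3-2 averaged 68 and 94, and without both of them 23 and 59. In all 7 fits that left out an array or plate, 35 of the higher and 54 of the lower probe sets were called. The limit of 100 let in some probe sets through 1 group only, 2204 through G_Hsf (17 called higher) and 685 through G_Wt (12 called lower), so the counts and medians over 100 that follow are descriptions. Over the 9181 probe sets above 100 in both groups the median log2 fold change was 0.04, against 0.11 over all 12070.

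**Figure D1:**
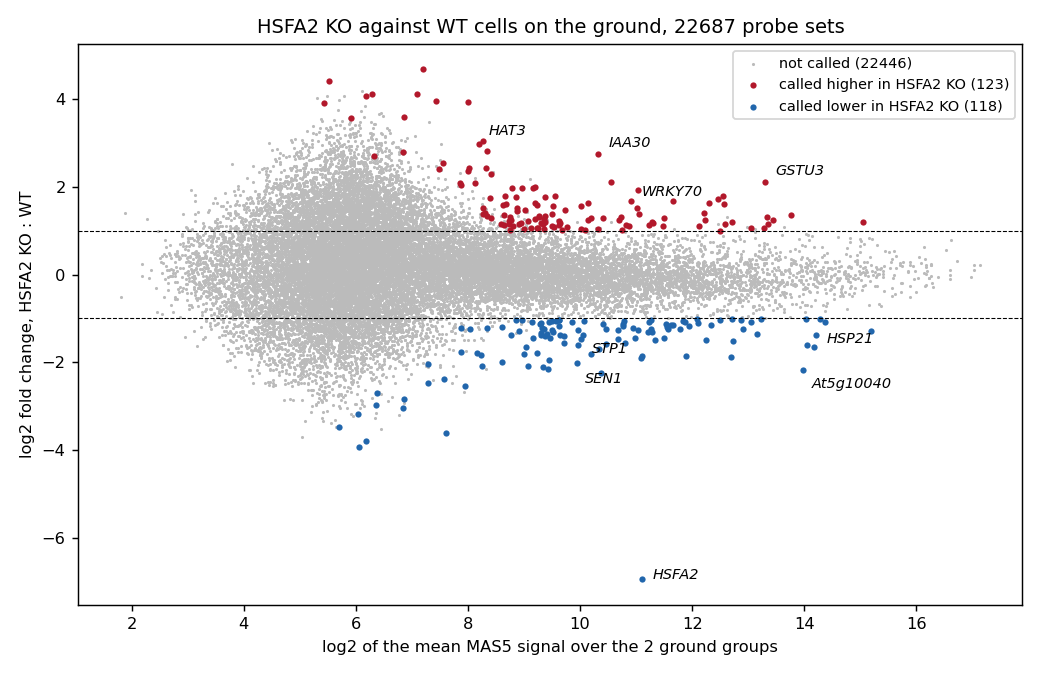
Log2 fold change of HSFA2 KO over WT cells on the ground (vertical axis) against the log2 of the mean MAS5 signal of the 2 ground groups (horizontal axis) for 22687 probe sets, with the 123 called higher in red, the 118 called lower in blue and dashed lines at 1 log2 unit either way. HSFA2 stands alone at -6.94, and the scatter of uncalled probe sets widens toward low signals.

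The heat stress genes are the group closest to the targeted factor. Of 14 small heat shock protein genes over 100, 3 fell (0.969% of all probe sets over 100 were called lower), none was called higher, and the median log2 fold change was -0.19 against 0.11 over all probe sets over 100. Small heat shock proteins hold unfolding proteins in a state from which other chaperones can refold them. The 3 that fell are located outside the cytosol. ATHSP22.0 (At4g10250), of the endoplasmic reticulum (ER), had signals of 3140.2, 3838 and 1719.8 on the G_Hsf arrays, against 8949.8, 7496, 11807 and 13328 on the G_Wt plates. The G_Hsf arrays were all below the G_Wt plates (log2 fold change -1.88 ± 0.35 (SE), adjusted p = 0.00241). At5g37670, a peroxisomal member, had signals of 1304, 2225 and 766 on the G_Hsf arrays, against 3709, 2800.5, 3483 and 4866 on the G_Wt plates, again without overlap (log2 fold change -1.48 ± 0.29 (SE), adjusted p = 0.00461). HSP21 (At4g27670), of plastids, had signals of 10418, 16490.2 and 6109 on the G_Hsf arrays, against 28695, 19845, 28744 and 30137 on the G_Wt plates (log2 fold change -1.38 ± 0.29 (SE), adjusted p = 0.00842). Array B5-2 was the lowest of the 3 G_Hsf arrays in all 3 genes, and without it At5g37670 (-1.10) and HSP21 (-1.02) were no longer called.

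Of the 14 genes, 11 had a negative and 3 a positive log2 fold change (5090 and 6980 of all 12070 probe sets over 100). Wholly below WT were 4 of the 14 (8.30% over all probe sets over 100). Some cytosolic members, chosen after their values were seen, had values near 0. A difference between cell compartments was not tested. HSP17.4 (At3g46230) had signals of 136016, 154686 and 125375 on the G_Hsf arrays, against 120521, 104493, 145120.00 and 147276 on the G_Wt plates, and the groups overlapped (log2 fold change 0.11). HSP17.6A (At5g12030) had a log2 fold change of 0.22, and HSP17.6II (At5g12020) one of -0.07. The mitochondrial HSP23.6-MITO (At4g25200) had signals of 10752, 23177 and 13134 on the G_Hsf arrays, against 23612, 24357, 30644 and 27056 on the G_Wt plates and did not pass the test (log2 fold change -0.82, adjusted p = 0.055). In spaceflight none of the 14 genes was called, with -0.79 for ATHSP22.0, -0.74 for At5g37670 and -0.64 for HSP21.

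None of 20 genes for HSP70, HSP90, HSP60 and HSP101 chaperones over 100 was called, with a median of 0.01. HSP101 (At1g74310), which pulls proteins out of aggregates, had signals of 64774, 103045 and 88087 on the G_Hsf arrays, against 62917, 60304, 75471 and 88058 on the G_Wt plates (log2 fold change 0.24). HSP90.1 (At5g52640), the heat-inducible cytosolic HSP90, had a log2 fold change of 0.03. The members with the smallest p were HSP70T-2 (At2g32120, log2 fold change -0.85, adjusted p = 0.0148) and CLPB3 (At5g15450, of plastids, -0.87, adjusted p = 0.022), both below the fold limit and both without overlap of the groups. CLPB3 was called when plate A1 (-1.01) or array B5-2 (-1.02) was left out. Among 16 heat shock transcription factors over 100, HsfA2 alone was called. HSFA7A (At3g51910), which is itself heat inducible, had signals of 21928, 25248 and 26701 on the G_Hsf arrays, against 15048, 13127, 19404 and 16700.00 on the G_Wt plates, with all G_Hsf arrays higher but no call (log2 fold change 0.63 ± 0.18 (SE), adjusted p = 0.0622).

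Of 16 co-chaperones and other heat stress genes over 100, 5 fell and 1 rose (0.969% and 1.00% over all probe sets over 100). GolS1 (At2g47180), which makes galactinol for raffinose sugars, had signals of 2281, 3644 and 1909.8 on the G_Hsf arrays, against 5696, 7549.7, 7013 and 8036 on the G_Wt plates (log2 fold change -1.48 ± 0.198 (SE), adjusted p = 0.000112). FBS1 (At1g61340), a stress-induced F-box protein, had signals of 216, 371 and 272 on the G_Hsf arrays, against 1123, 653, 1219 and 1466 on the G_Wt plates (log2 fold change -1.94 ± 0.31 (SE), adjusted p = 0.000672). HSA32 (At4g21320), needed in Arabidopsis to keep acquired heat tolerance over time, had signals of 1254, 2229.6 and 2025 on the G_Hsf arrays, against 3259, 3796, 5346 and 4190.1 on the G_Wt plates (log2 fold change -1.19 ± 0.2001 (SE), adjusted p = 0.00107). In these 3 genes no G_Hsf array reached a G_Wt plate, and GolS1 and FBS1 were called with any single array or plate left out. HSA32 was not called without array B3 (-0.94). AR192 (At4g26780), a GrpE-type nucleotide exchange factor, was called lower, at 102, 10.8 and 148 in G_Hsf and 258, 236, 445 and 232 in G_Wt, and lost the call without plate A2, plate B1 or array B3-2 (-2.46, -2.15 and -1.20). At5g48570, an FKBP-type prolyl isomerase, overlapped between the groups (-1.02) and was called in 2 of the 7 fits that left out an array or plate. MGE1 (At5g55200), another GrpE-type exchange factor of mitochondria, moved the other way, with signals of 1246, 2061 and 1703 on the G_Hsf arrays, against 748, 680.1, 806 and 479.9 on the G_Wt plates (log2 fold change 1.296 ± 0.22 (SE), adjusted p = 0.00131).

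**Figure D2:**
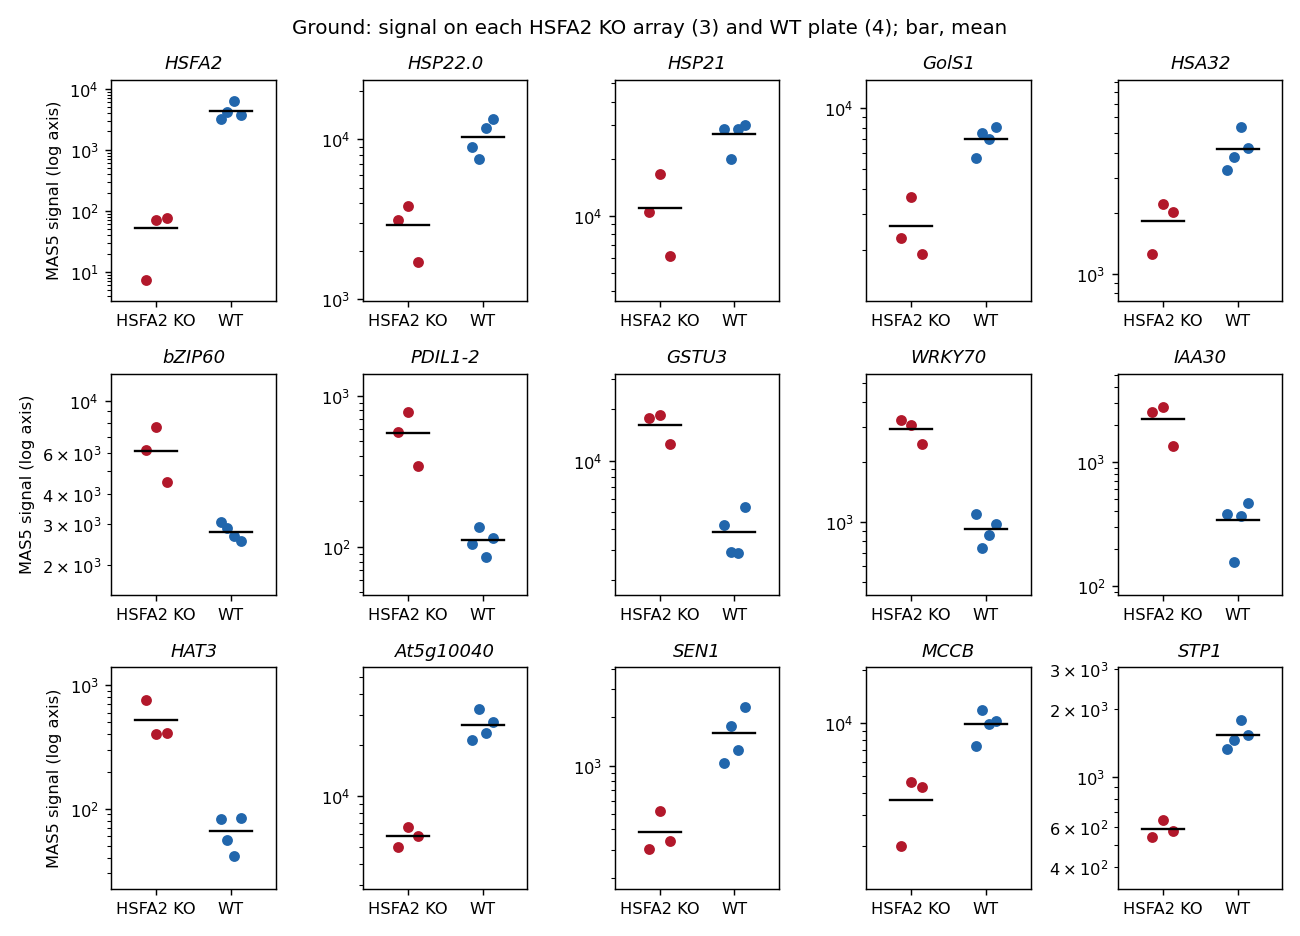
MAS5 signal (vertical log axes, a separate range in each panel) of 15 genes on the 3 HSFA2 KO arrays (red, left) and 4 WT plates (blue, right) on the ground, with the mean as a bar. The groups do not overlap in any of the 15 panels, and HSFA2, HSP22.0, HSP21, GolS1, HSA32, At5g10040, SEN1, MCCB and STP1 are lower in the KO cells while bZIP60, PDIL1-2, GSTU3, WRKY70, IAA30 and HAT3 are higher.

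Genes for protein folding in the ER were divided by their roles. Of 19 genes over 100 for regulators of the unfolded protein response and ER-associated degradation, 1 rose (bZIP60) and 1 fell (UTR3, given below). Their median was 0.16, against 0.11 over all probe sets over 100, of which 1.00% were called higher and 0.969% lower. The 17 of them over 100 in both groups had a median of 0.10. bZIP60 (BZIP60, At1g42990), the transcription factor of the unfolded protein response that is spliced by IRE1, had signals of 6178, 7705 and 4488 on the G_Hsf arrays, against 3041, 2883, 2649.6 and 2521 on the G_Wt plates (log2 fold change 1.11 ± 0.18 (SE), adjusted p = 0.00107), and lost the fold limit without array B3-2 (0.93), with Rep2 as a block (0.97) and with array medians subtracted (0.84). Of 16 genes for protein disulfide isomerases and ERO1 oxidases over 100, 2 rose and none fell, with a median of 0.41 and with 6 of 16 wholly above WT (12.3% over all probe sets over 100). PDIL1-2 (At1g77510) had signals of 575, 783 and 342 on the G_Hsf arrays, against 105, 136, 85.8 and 115 on the G_Wt plates (log2 fold change 2.299 ± 0.33 (SE), adjusted p = 0.000307). UNE5 (At2g47470), a second disulfide isomerase, had signals of 981, 1142 and 865 on the G_Hsf arrays, against 365, 419.8, 713 and 442 on the G_Wt plates (log2 fold change 1.08 ± 0.26 (SE), adjusted p = 0.0232), and was called in 2 of the 7 fits that left out an array or plate. ERO1 (At1g72280), the oxidase that recharges these isomerases, was uncalled at 179, 221 and 96.9 in G_Hsf and 75, 7.05, 90.1 and 12.5 in G_Wt (adjusted p = 0.202).

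None of 12 ER lumen chaperones and lectins was called, although 9 of the 12 had a positive log2 fold change (6980 of all 12070 probe sets over 100) and their median was 0.44. Of the 12, 2 were over 100 in G_Hsf alone, and the 10 over 100 in both groups had a median of 0.36. SHD (At4g24190), the HSP90 of the ER, had signals of 531, 804 and 537 on the G_Hsf arrays, against 319, 233, 382 and 379 on the G_Wt plates, without overlap, and did not pass the test (log2 fold change 0.93 ± 0.29 (SE), adjusted p = 0.11). Of 12 genes of the ER translocon and the ER to Golgi coat, 2 rose (1.00% over all probe sets over 100). At1g29310, a subunit of the SEC61 channel, had signals of 1036, 1015 and 915 on the G_Hsf arrays, against 531, 452, 402 and 448 on the G_Wt plates (log2 fold change 1.11 ± 0.24 (SE), adjusted p = 0.00874), and CEF (At3g44340), a SEC24-type coat protein, had a log2 fold change of 1.05 (adjusted p = 0.0148). CEF was called in 4 of the 7 fits that left out an array or plate, At1g29310 was not called with Rep2 as a block (0.91), and neither was called with array medians subtracted. Both were also called in spaceflight (1.91 and 1.33). UTR3 (At1g14360), a nucleotide sugar transporter linked to the unfolded protein response, fell (log2 fold change -1.07, adjusted p = 0.0152) and was called in 4 of the 7 fits that left out an array or plate.

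Tau glutathione transferases join glutathione to foreign or oxidized compounds, and 3 of 18 over 100 rose, with none lower and a median of 0.49 (1.00% of all probe sets over 100 were called higher). Of the 18, 4 were over 100 in G_Hsf alone. The 14 over 100 in both groups, which include the 3 that rose, had a median of 0.44. GSTU3 (At2g29470), which had the smallest p among the higher genes, had signals of 17769, 18429 and 12514 on the G_Hsf arrays, against 4237, 2943, 2882 and 5349.9 on the G_Wt plates (log2 fold change 2.104 ± 0.21 (SE), adjusted p = 2.45e-06). The lowest G_Hsf array was well above the highest G_Wt plate. GSTU24 (At1g17170) had signals of 5077, 8858 and 6510.4 on the G_Hsf arrays, against 3587, 2092, 3079.7 and 1779 on the G_Wt plates (log2 fold change 1.39 ± 0.24 (SE), adjusted p = 0.00114), and GSTU1 (At2g29490) had signals of 6348, 9013 and 12450.4 on the G_Hsf arrays, against 4291, 2324, 4504 and 5153 on the G_Wt plates (log2 fold change 1.195 ± 0.23 (SE), adjusted p = 0.00353). GSTU1 was not called without plate A2 (0.95) or array B5-2 (0.96). GSTU19 (At1g78380) differed by 0.503 and was not called, although its groups did not overlap. In spaceflight 4 members were called higher, including GSTU3 (1.87), GSTU24 (1.52) and GSTU1 (1.46).

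Families of transporters that export small molecules were matched by annotation text, so a member may not be an exporter. Of 63 ABC transporters over 100, 6 rose and 1 was called lower (1.00% and 0.969% over all probe sets over 100). The median was 0.67, and 17 were wholly above WT against 3 wholly below (12.3% and 8.30% over all probe sets over 100). Of the 63, 17 were over 100 in G_Hsf alone, among them 2 of the 6 that rose, and 2 in G_Wt alone, among them the 1 called lower. The 44 over 100 in both groups had a median of 0.28 with 4 called higher. ABC1 (At4g01660) was called lower, and in 2 of the 7 fits that left out an array or plate. Whether it exports small molecules was not examined. ABCB27 (At5g39040) had signals of 624, 861 and 881 on the G_Hsf arrays, against 244, 143, 277 and 167 on the G_Wt plates (log2 fold change 1.96 ± 0.37 (SE), adjusted p = 0.0032), and ABCG37 (At3g53480), known to export auxin-type compounds and coumarins from roots, had signals of 657, 1036 and 942 on the G_Hsf arrays, against 229, 245, 219 and 504 on the G_Wt plates (log2 fold change 1.62 ± 0.33 (SE), adjusted p = 0.00665). ABCA1, ABCG31, NAP5 and ABCB9 had log2 fold changes of 1.59, 2.41, 1.27 and 4.67. ABCG37 was not called without array B3-2, nor ABCA1 without array B5-2. NAP5 was called in 2 of the 7 fits that left out an array or plate and ABCG31 in 4. ABCB9 (At4g18050) had signals of 177, 208 and 456 in G_Hsf and 34.2, 3.28, 11.8 and 7.75 in G_Wt, all of the G_Wt values under 100, and was called in 1 of the 7 fits that left out an array or plate. Of 19 MATE efflux proteins over 100, 3 rose (1.00% over all probe sets over 100) and none fell, and their median was 1.31. Over the 10 above 100 in both groups, which include those 3, it was 0.96. At2g04050 had signals of 515, 732 and 839 on the G_Hsf arrays, against 304, 193, 202 and 279.5 on the G_Wt plates (log2 fold change 1.51 ± 0.33 (SE), adjusted p = 0.0113), and At1g66760 and At1g71140 had log2 fold changes of 1.32 and 1.31. With the array median subtracted no ABC transporter and no MATE protein was called higher, and the medians were 0.39 and 1.03, with -0.16 over all probe sets over 100. Without array B5-2 the higher counts were 2 of the ABC transporters and 0 of the MATE proteins, and with Rep2 as a block 3 and 0.

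Cytochrome CYP81D8 (At4g37370) had signals of 4884, 6343 and 3695 on the G_Hsf arrays, against 1851, 1330.02, 1465 and 1440.4 on the G_Wt plates (log2 fold change 1.69 ± 0.26 (SE), adjusted p = 0.000497), and CYP710A1 (At2g34500), a sterol desaturase, had a log2 fold change of 1.06 and was called in 2 of the 7 fits that left out an array or plate. These were the 2 called of 83 cytochromes P450 over 100 (1.00% of all probe sets over 100 were called higher). Among 48 UDP-glycosyltransferases over 100, 5 rose and none fell, 3 of the 5 being over 100 in G_Hsf alone. UGT73B4 (At2g15490) had signals of 626, 1192 and 888 on the G_Hsf arrays, against 381, 233, 153 and 184 on the G_Wt plates (log2 fold change 1.97 ± 0.38 (SE), adjusted p = 0.00392), and UGT75B1 (At1g05560) had a log2 fold change of 2.09 and was not called without array B5-2. The probe set of At2g36770 matches 2 loci, and its G_Wt signals were 109, 13.5, 4.62 and 15.6, mostly far under 100, so the size of its difference is not given. The remaining pair is listed with the immunity genes.

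Of 17 immunity genes over 100, 4 rose (1.00% over all probe sets over 100) and none fell, and their median was 0.94. Of the 17, 6 were over 100 in G_Hsf alone, among them UGT74F2 and WRKY17 of the 4 that rose, and the 11 over 100 in both groups had a median of 0.56 with 2 called. WRKY70 (At3g56400), a transcription factor that favours salicylic acid over jasmonate responses, had signals of 3235, 3056 and 2453 on the G_Hsf arrays, against 1101, 737, 858 and 979 on the G_Wt plates (log2 fold change 1.67 ± 0.23 (SE), adjusted p = 0.000211). Each G_Hsf array was well above the highest G_Wt plate. UGT76B1 (At3g11340), which glucosylates salicylic acid and isoleucic acid, had signals of 7143, 10064 and 10263 on the G_Hsf arrays, against 4068, 2007, 3226 and 1808 on the G_Wt plates (log2 fold change 1.78 ± 0.31 (SE), adjusted p = 0.00131). UGT74F2 (At2g43820), a salicylic acid glucosyltransferase, had signals of 308, 741 and 595 on the G_Hsf arrays, against 24.9, 73, 85.3 and 100.4 on the G_Wt plates (log2 fold change 3.03 ± 0.71 (SE), adjusted p = 0.0206). WRKY17 (At2g24570), a negative regulator of basal defence, had signals of 256, 441 and 572 on the G_Hsf arrays, against 53.9, 85.8, 160.2 and 50.2 on the G_Wt plates (log2 fold change 2.36 ± 0.46 (SE), adjusted p = 0.00453), and a further WRKY factor of this kind outside the list, WRKY38 (At5g22570), had a log2 fold change of 1.77. The pathogenesis-related gene PR1 (At2g14610) was uncalled with overlapping groups, at 103, 40.3 and 176 in G_Hsf and 125, 17.5, 6.98 and 10.8 in G_Wt, and PAD3 and CYP71A13, enzymes of camalexin synthesis, were not over 100. WRKY70, UGT76B1, UGT74F2 and WRKY38 were called in spaceflight too, at 2.14, 1.803, 3.33 and 2.19. UGT74F2 and WRKY38 lost the ground call in 4 and 6 of the 7 fits that left out an array or plate, and WRKY17 without array B5-2 (2.11).

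The jasmonate list held 12 genes over 100, of which JAZ1 (At1g19180), a repressor of jasmonate responses, rose (log2 fold change 1.13 ± 0.27 (SE), adjusted p = 0.0241) and the rest were not called, with a median of -0.10. Over all probe sets over 100, 1.00% were called higher and 0.969% lower. JAZ1 was called in 2 of the 7 fits that left out an array or plate. Of 48 NAC factors over 100, NAC102 (At5g63790) and ATAF1 (At1g01720) rose, with log2 fold changes of 1.24 and 1.05 (1.00% of all probe sets over 100 were called higher). NAC102 had signals of 2782, 2469 and 1786 on the G_Hsf arrays, against 914, 1019, 1146 and 850.3 on the G_Wt plates, without overlap. ATAF1 had signals of 11029.6, 13549.7 and 9655 on the G_Hsf arrays, against 5864, 5093, 3957 and 7534 on the G_Wt plates and was called in 1 of the 7 fits that left out an array or plate (adjusted p = 0.0423 with all).

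Both lines grew on the same synthetic auxin. Of 21 auxin response genes over 100, 4 rose and none fell, 7 were wholly above WT and 1 wholly below, and the median was 0.53 (over all probe sets over 100, 1.00% were called higher, and 12.3% and 8.30% were wholly above and below). With array medians subtracted 2 of the 4 were called. IAA30 (At3g62100), an Aux/IAA protein, had signals of 2512, 2795 and 1344 on the G_Hsf arrays, against 382, 156, 367 and 467 on the G_Wt plates (log2 fold change 2.73 ± 0.37 (SE), adjusted p = 0.000147). IAA13 (At2g33310), an Aux/IAA repressor of auxin responses, had signals of 3005, 3125 and 3749.6 on the G_Hsf arrays, against 1087, 868, 578 and 1029 on the G_Wt plates (log2 fold change 1.92 ± 0.29 (SE), adjusted p = 0.000497). GH3.3 (At2g23170), which joins auxin to amino acids, had signals of 11173, 7581 and 8195 on the G_Hsf arrays, against 3094, 2068, 2091 and 5324 on the G_Wt plates (log2 fold change 1.61 ± 0.32 (SE), adjusted p = 0.00487). The probe set of GH3.4 (At1g59500, 1.56) matches 2 loci, its groups overlapped, and it was called in 3 of the 7 fits that left out an array or plate. In spaceflight IAA30 (1.51) and IAA13 (1.31) were called and GH3.3 (0.55) was not.

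A pair of class II homeodomain-leucine zipper factors stood among the 15 higher genes with the smallest p. HAT3 (At3g60390) had signals of 753, 405 and 413 on the G_Hsf arrays, against 82.8, 55.9, 41.5 and 84.7 on the G_Wt plates (log2 fold change 2.98 ± 0.49 (SE), adjusted p = 0.00105), and HAT2 (At5g47370), an auxin-inducible member, had signals of 2359, 2479.9 and 2341 on the G_Hsf arrays, against 1181, 388, 482 and 434 on the G_Wt plates (log2 fold change 2.104 ± 0.35 (SE), adjusted p = 0.00107). Both groups were separate in each gene. RGF3 (At2g04025), the precursor of a root meristem growth factor peptide, had signals of 1697, 1889 and 1465 on the G_Hsf arrays, against 710.1, 399.7, 377 and 825 on the G_Wt plates (log2 fold change 1.62 ± 0.25 (SE), adjusted p = 0.000524). LBD16 (At2g42430), which acts in lateral root founding and callus formation, was called higher with overlapping groups, at 373, 1085 and 828 in G_Hsf and 450.2, 209, 151 and 273 in G_Wt (log2 fold change 1.48 ± 0.34 (SE), adjusted p = 0.0187). It was called in 3 of the 7 fits that left out an array or plate, and neither with Rep2 as a block nor with array medians subtracted. RAP2.4 (At1g78080), known as WIND1 for its part in wound callus, was called lower with overlapping groups, at 854, 1126 and 3638 in G_Hsf and 3541, 7026, 6631 and 5602 in G_Wt (log2 fold change -1.86 ± 0.31 (SE), adjusted p = 0.00107), array B5-2 standing apart from the other G_Hsf arrays. SCR, SHR and PLT1 were not called, and neither was any of 16 cell cycle genes over 100 (median 0.48). Of the 16, 5 were over 100 in G_Hsf alone and 2 in G_Wt alone, and the 9 over 100 in both groups had a median of 0.20.

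The rest of the 15 higher genes with the smallest p were of mixed kind. At2g26190, a calmodulin-binding protein, had signals of 1103, 1379.7 and 1243 on the G_Hsf arrays, against 534, 423, 476 and 377 on the G_Wt plates (log2 fold change 1.46 ± 0.21 (SE), adjusted p = 0.000242). SBT3.5 (At1g32940), a subtilase, had signals of 407, 634 and 549 on the G_Hsf arrays, against 102, 148, 154 and 39.6 on the G_Wt plates (log2 fold change 2.41 ± 0.395 (SE), adjusted p = 0.00105). At2g43535, annotated as a trypsin inhibitor, and At2g41730, of unknown function, had log2 fold changes of 1.51 and 1.19. At2g41730 had signals of 44377, 54372 and 40598 on the G_Hsf arrays, against 30824, 14795, 20565 and 17694 on the G_Wt plates.

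**Figure D3:**
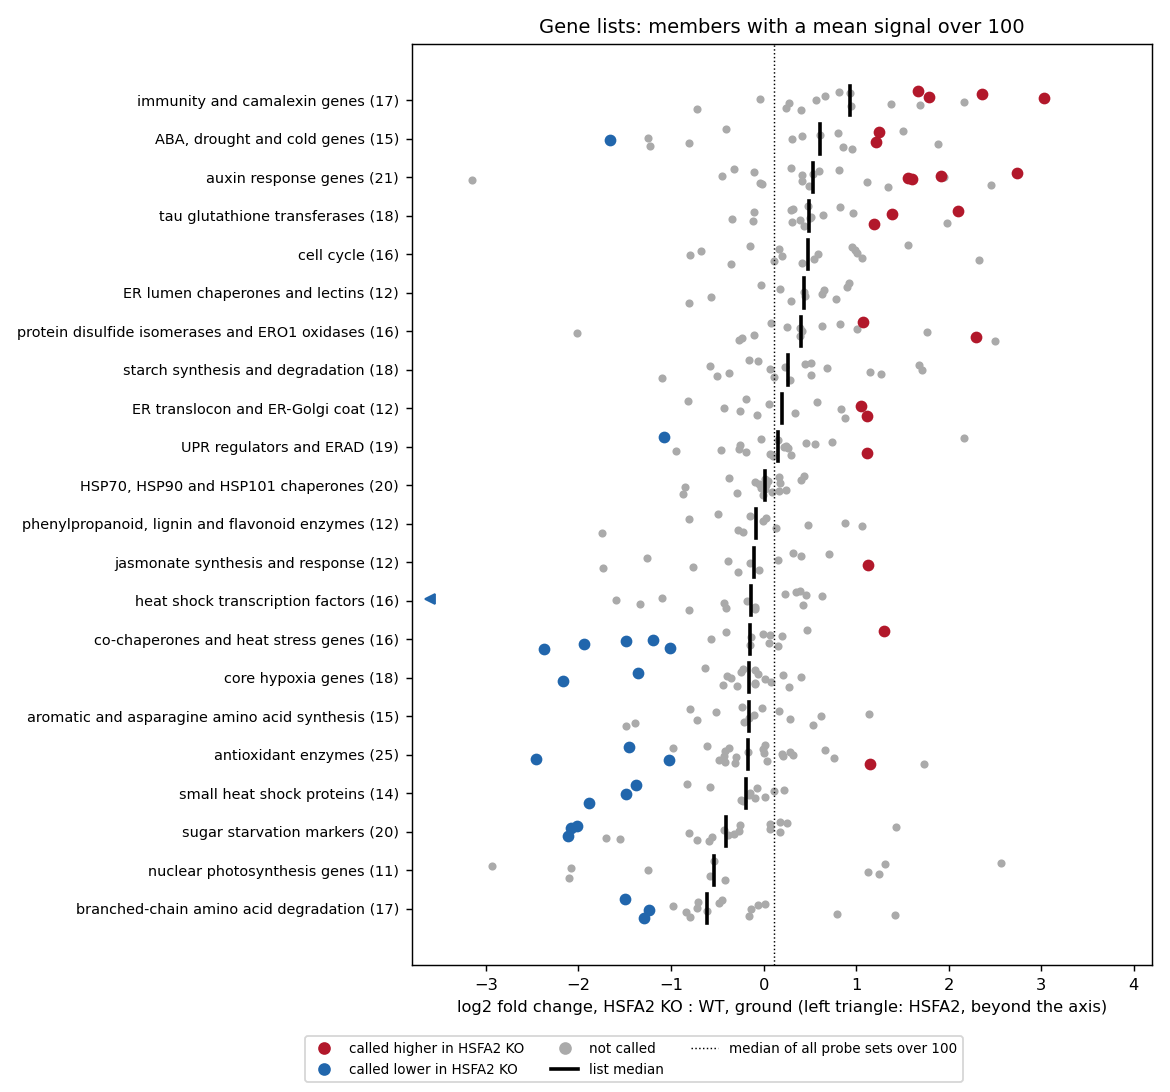
Log2 fold change of HSFA2 KO over WT on the ground for the members of 22 gene lists with a mean signal over 100 (number in brackets), lists ordered by their median (bar), called members in red (higher) or blue (lower). Immunity genes have the highest median (0.94, or 0.56 over members above 100 in both groups) and branched-chain amino acid degradation the lowest (-0.61, or -0.33 without array B3), the dotted line marking 0.11 for all probe sets over 100.

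Sugar starvation markers are genes that plant cells raise in the dark or without sugar. Of 20 over 100, 3 fell (0.969% over all probe sets over 100) and none rose, with a median of -0.41. The 18 over 100 in both groups, which include those 3, had a median of -0.36. SEN1 (At4g35770), a dark-inducible gene, had signals of 302, 519 and 339 on the G_Hsf arrays, against 1039, 1775, 1257 and 2309 on the G_Wt plates (log2 fold change -2.02 ± 0.34 (SE), adjusted p = 0.00107). At4g37220, annotated as a stress-responsive protein, had signals of 239, 259 and 205 on the G_Hsf arrays, against 615, 1079, 938 and 1642 on the G_Wt plates (log2 fold change -2.11 ± 0.35 (SE), adjusted p = 0.00107), and PP2-A13 (At3g61060), a phloem protein 2-type protein, had signals of 71.6, 211 and 93 on the G_Hsf arrays, against 398, 636, 391 and 503 on the G_Wt plates (log2 fold change -2.08 ± 0.42 (SE), adjusted p = 0.00542). The groups were separate in all 3, which were called with any single array or plate left out. Without arrays B3 and B3-2 together, which leaves only array B5-2 in G_Hsf, the list median was 0.06. DIN10 (At5g20250), a raffinose synthase-type gene, was wholly below WT but under the fold limit (-0.81, adjusted p = 0.0064), and ASN1 (At3g47340), asparagine synthetase, overlapped (-0.72). SAG29 (At5g13170) had a positive value, 1.43, with no call.

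Genes that break down branched-chain amino acids, which feed respiration when sugar is short, had a median of -0.61 over 17 genes. Of these, 3 were called lower (0.969% over all probe sets over 100) and none higher. Without array B3 the median was -0.33. MCCB (At4g34030), a subunit of methylcrotonyl-CoA carboxylase, had signals of 2009.9, 4659 and 4365 on the G_Hsf arrays, against 7460.2, 11839.9, 9947 and 10294 on the G_Wt plates (log2 fold change -1.501 ± 0.25 (SE), adjusted p = 0.00107). ALDH6B2 (At2g14170), methylmalonate semialdehyde dehydrogenase, had signals of 1217, 1732 and 1136 on the G_Hsf arrays, against 2119, 4388, 3791 and 3308 on the G_Wt plates (log2 fold change -1.296 ± 0.23 (SE), adjusted p = 0.00166). BCE2 (At3g06850), the E2 subunit of the branched-chain keto acid dehydrogenase, had signals of 3223, 6047 and 4594 on the G_Hsf arrays, against 8557, 14457, 8251 and 12090.00 on the G_Wt plates (log2 fold change -1.24 ± 0.23 (SE), adjusted p = 0.0033). All 3 were wholly below WT, and BCE2 lost the call, at the fold limit, without array B3. Array B3 was the lowest G_Hsf array in MCCB and BCE2. MCCA (At1g03090), the partner of MCCB, had a log2 fold change of -0.45 with overlapping groups, and IVD (At3g45300), isovaleryl-CoA dehydrogenase, was wholly below WT at -0.71 (adjusted p = 0.015).

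In spaceflight no member of either list was called, and the medians there were 0.00 for branched-chain amino acid degradation and 0.07 for sugar starvation. SEN1 had signals of 782, 1686 and 1160.4 in F_Hsf and 849, 883, 3005 and 1206 in F_Wt (log2 fold change -0.16), and MCCB had a log2 fold change there of -0.52. The test of the difference between the ground and flight contrasts gave an unadjusted p of 0.000599 for SEN1 and 0.0101 for MCCB, and neither passed the adjustment over all probe sets. Both genes were named for their ground difference, which is part of that test. Their small unadjusted p therefore cannot decide whether the environments differ. A difference between environments was not tested for either list as a whole.

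STP1 (At1g11260), the main hexose symporter of Arabidopsis cells, had signals of 546, 647 and 578 on the G_Hsf arrays, against 1328, 1459.98, 1791 and 1525 on the G_Wt plates (log2 fold change -1.37 ± 0.21 (SE), adjusted p = 0.000497) and was the 1 called of 30 sugar transporters over 100. NRT1.1 (At1g12110), the nitrate transporter and sensor, had signals of 357, 484 and 502 on the G_Hsf arrays, against 899, 1267, 1239.9 and 1206 on the G_Wt plates (log2 fold change -1.37 ± 0.21 (SE), adjusted p = 0.000497) and was the 1 called of 12 nitrate transporters over 100. Over all probe sets over 100, 0.969% were called lower. Groups were separate in both STP1 and NRT1.1, and both were called with any array or plate left out. BZO2H3 (At5g28770), known as bZIP63 and as a target of the energy-sensing kinase SnRK1, had signals of 1332, 2028 and 2101 on the G_Hsf arrays, against 3457, 4708, 4535 and 4319 on the G_Wt plates (log2 fold change -1.24 ± 0.19 (SE), adjusted p = 0.000497).

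The core hypoxia list held 18 genes, all over 100, with a median of -0.16. Of these, 2 fell (0.969% over all probe sets over 100) and none rose. At5g10040, a hypoxia-induced gene of unknown function, had the smallest p among the lower genes after HsfA2, with signals of 5006, 6635 and 5852 on the G_Hsf arrays, against 21563, 32639, 23663 and 27257 on the G_Wt plates (log2 fold change -2.16 ± 0.23 (SE), adjusted p = 3.58e-06). PDC2 (At5g54960), pyruvate decarboxylase, had signals of 487, 388 and 285 on the G_Hsf arrays, against 716, 1157, 1107 and 945 on the G_Wt plates (log2 fold change -1.35 ± 0.24 (SE), adjusted p = 0.00155). ADH1 (At1g77120), alcohol dehydrogenase, had signals of 73211, 74235 and 70448 on the G_Hsf arrays, against 86964, 89489.6, 96206 and 82901 on the G_Wt plates and was wholly below WT with a log2 fold change of -0.29, which was not called. HB1 (At2g16060), the hypoxia-induced haemoglobin, had a log2 fold change of 0.21 with overlapping groups.

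Of 25 antioxidant enzymes over 100, 3 were called lower and 1 higher (0.969% and 1.00% over all probe sets over 100). CAT2 (At4g35090), a peroxisomal catalase, had signals of 3381, 4435 and 3589.7 on the G_Hsf arrays, against 6521, 7748, 9106 and 7566 on the G_Wt plates (log2 fold change -1.02 ± 0.17 (SE), adjusted p = 0.00107), close to the fold limit, which it missed without plate B1, array B3 or array B5-2 (-0.94, -0.94 and -0.99). PMSR1 (At5g61640), which repairs oxidized methionine, had signals of 368, 517 and 269.8 on the G_Hsf arrays, against 966, 1104, 1128 and 881 on the G_Wt plates (log2 fold change -1.45 ± 0.28 (SE), adjusted p = 0.00363), and was also called in spaceflight (-1.26). CDSP32 (At1g76080), a plastid thioredoxin-type protein, overlapped between groups (-2.46, called in 2 of the 7 fits that left out an array or plate). AOX1A (At3g22370), the alternative oxidase of mitochondria, was higher, with signals of 18669, 13495 and 11414 on the G_Hsf arrays, against 6595, 4837, 8571 and 6101 on the G_Wt plates (log2 fold change 1.15 ± 0.2004 (SE), adjusted p = 0.00141), and lost the fold limit without array B3 (0.96).

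Of 15 drought and cold genes over 100, 1 fell and 2 rose (0.969% and 1.00% over all probe sets over 100). ERD10 (At1g20450), a dehydrin, had signals of 196, 356 and 221 on the G_Hsf arrays, against 815, 679, 924 and 744 on the G_Wt plates (log2 fold change -1.66 ± 0.29 (SE), adjusted p = 0.00156), whereas RCI2A (At3g05880), a small membrane protein of cold and salt responses, had signals of 13186, 18932 and 14189 on the G_Hsf arrays, against 5725, 4892, 5135 and 11888 on the G_Wt plates (log2 fold change 1.25 ± 0.25 (SE), adjusted p = 0.00593). DREB2B (At3g11020), a transcription factor of drought and heat responses, had a log2 fold change of 1.21 and was called in 3 of the 7 fits that left out an array or plate. RCI2A lost the call without array B3-2 (1.09), and neither RCI2A nor DREB2B was called with Rep2 as a block, with array medians subtracted or against the WT plates of BRIC B alone.

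Several of the 15 lower genes with the smallest p fell in no list. GATA3 (At4g34680), a GATA-type transcription factor, had signals of 363, 494 and 498 on the G_Hsf arrays, against 1787, 2801, 2847 and 1399 on the G_Wt plates (log2 fold change -2.24 ± 0.25 (SE), adjusted p = 1.1e-05). At1g62290, an aspartyl protease, had signals of 495, 420.5 and 628 on the G_Hsf arrays, against 1268, 1699, 1945 and 2416 on the G_Wt plates (log2 fold change -1.81 ± 0.21 (SE), adjusted p = 1.1e-05). RAE1 (At1g80670), an mRNA export factor, had signals of 19301, 24733 and 21374 on the G_Hsf arrays, against 41763, 62595, 51683 and 57430.1 on the G_Wt plates (log2 fold change -1.28 ± 0.16 (SE), adjusted p = 5.43e-05). These 3 genes showed no overlap between groups. ATI2 (At4g00355), an ATG8-interacting protein, HB16 (At4g40060), a class I homeodomain-leucine zipper factor, and KLCR1 (At4g10840), a kinesin light chain-related protein, had log2 fold changes of -1.15, -1.32 and -1.002. At5g51970, a putative sorbitol dehydrogenase, At5g56100, an oleosin-type protein, and the unannotated At2g46550, At2g20500 and At4g02920 had values of -1.25, -1.603, -1.57, -2.16 and -1.69. KLCR1 missed the fold limit in 4 of the 7 fits that left out an array or plate.

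Many gene groups had no called member. No gene was called among 12 phenylpropanoid, lignin and flavonoid enzymes, 15 genes of aromatic amino acid and asparagine synthesis, 18 of starch metabolism, 11 nuclear photosynthesis genes, 33 aquaporins, 10 expansins, 16 xyloglucan endotransglucosylases and 68 receptor-like kinases over 100. PIP1B (At2g45960), an aquaporin, was wholly below WT at -0.94 (adjusted p = 0.00241), under the fold limit. XTH24 (At4g30270), a wall-loosening enzyme, was likewise wholly below WT at -0.79 (adjusted p = 0.00329). Of 304 ribosomal protein genes, 2 rose (1.00% over all probe sets over 100), neither of them called with array medians subtracted, and 66 were wholly above WT against 19 wholly below (12.3% and 8.30% over all), with a median of 0.17. Over all probe sets over 100, 0.969% were called lower. Of 62 DnaJ domain proteins, At4g28480 fell (-1.16, adjusted p = 0.0187), of 54 genes matched to the proteasome by annotation text, not all of them subunits, PA200 (At3g13330) rose (1.03, adjusted p = 0.0133), and of 6 class III peroxidases At1g71695 rose (1.38, adjusted p = 0.00701). These were called in 3, 5 and 6 of the 7 fits that left out an array or plate.

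The ground calls were then read in the spaceflight arrays, which are separate samples of the same lines. The ground values chose these genes, so their size on the ground is a description. Of the 121 higher probe sets, 118 had a positive log2 fold change in spaceflight, 42 (34.7%) were called there, and the median flight value was 1.04. Of the 117 lower probe sets, 112 had a negative flight value, 14 (12%) were called, and the median was -0.63. Over all probe sets over 100, 0.829% were called higher and 0.307% lower in spaceflight. GATA3 (-1.42), At2g46550 (-1.06) and PMSR1 (-1.26) were among those called lower in both environments. The test of the ground difference against the flight difference called no probe set at an adjusted p under 0.05 with limma (smallest adjusted p 0.978), and 1109 of 22687 had an unadjusted p under 0.05. That is close to the share of 0.05 that this limit lets through when no probe set differs.

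**Figure D4:**
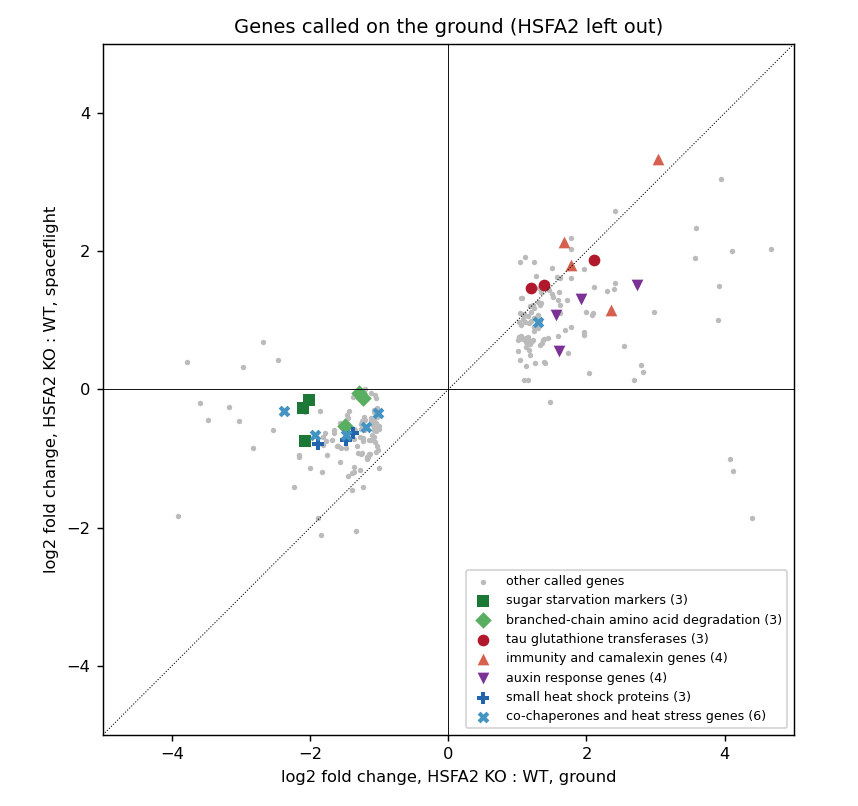
Log2 fold change of HSFA2 KO over WT in spaceflight (vertical axis) against that on the ground (horizontal axis) for the genes called on the ground, HSFA2 left out, with called members of 7 lists marked and the dotted line showing equal values. The tau glutathione transferases and 3 of the 4 immunity genes lie near or above the line, whereas SEN1, At4g37220, ALDH6B2 and BCE2 lie close to 0 in spaceflight and PP2-A13 (-0.75) and MCCB (-0.52) below it.

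Position on the chromosomes was examined after the values had been seen, so it is given as a description. Of the 1730 probe sets over 100 on chromosome 4, 34 (1.97%) were called lower and 9 (0.52%) higher, and their median log2 fold change was -0.03, against 0.11 to 0.16 on the other chromosomes. Relative to the mean of all WT plates of both environments and to all probe sets on the same array, the median of chromosome 4 was -0.156, -0.126 and -0.144 on the G_Hsf arrays, against -0.021, 0.002, 0.056 and -0.012 on the G_Wt plates. In spaceflight it was -0.117, -0.148 and -0.121 in F_Hsf and -0.069, 0.008, 0.025 and 0.010 in F_Wt. The KO arrays were thus below the WT plates in both environments. The shift was spread along the chromosome, with 10 of 10 stretches of 2 Mb having a median under that of all probe sets on the ground and in flight. Leaving out any array or plate kept the chromosome 4 median under that of all probe sets, by -0.17 to -0.12 log2 units. Chromosome 2 had 32 higher calls (1.74%). Its median, taken the same way, was 0.052, 0.074 and 0.045 on the G_Hsf arrays, against 0.011, 0.004, -0.031 and 0.019 on the G_Wt plates. In flight it was 0.049, 0.071 and 0.078 in F_Hsf and 0.003, 0.011, 0.034 and -0.044 in F_Wt, so the KO arrays lay above the WT plates in both environments. A stretch of 2 Mb there, with 75 probe sets, had a median of 0.547 relative to all probe sets on the ground and 0.302 in flight. The next stretch, with 35 probe sets, had -0.190 on the ground and 0.174 in flight. Of 10 stretches on chromosome 2, 3 had a median under that of all probe sets on the ground and 0 in flight. Which transcripts the probe sets of the stretch at 0.547 detect was not examined. Chromosome 4 carries 5 of the 15 lower genes with the smallest p (GATA3, ATI2, HB16, At4g02920 and KLCR1) and 8 of the 22 listed genes called lower, ATHSP22.0, HSP21, HSA32, AR192, MCCB, SEN1, At4g37220 and CAT2, and the part of the chromosome shift in their values was not tested.

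**Figure D5:**
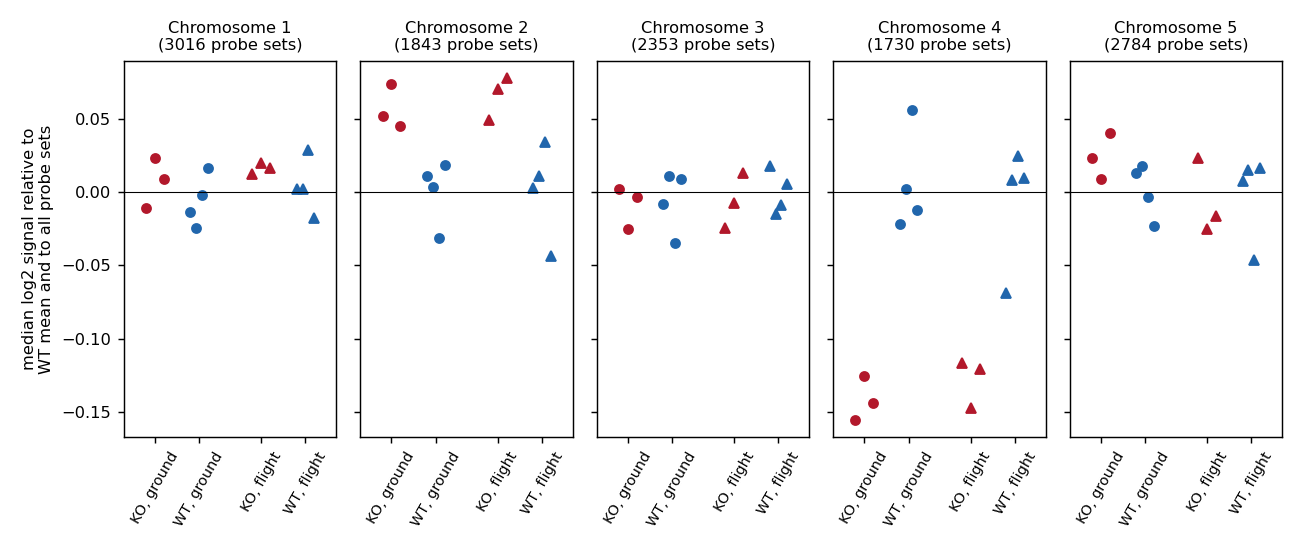
Median log2 signal of the probe sets over 100 on each chromosome, relative to the mean of all WT plates of both environments and to all probe sets on the same array (vertical axis), for each KO array (red) and WT plate (blue) on the ground (circles) and in spaceflight (triangles). On chromosome 4 all 6 KO points lie at or below -0.117, under all WT points.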

How the data were processed

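Transcripts were measured on Affymetrix ATH1 arrays from amplified RNA of callus cells. Per the labels, the authors made MAS5 signal intensity values with Affymetrix Expression Console, and the deposited intensity table of 16 arrays is on the linear scale, scaled to a trimmed mean of 500. The scaling leaves array medians unequal, so a constant shift between arrays cannot be told apart from a broad change. The deposited columns of log2 fold changes and p-values hold the authors' own comparisons and were not used.

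Of 22810 probe sets, 22687 were tested, the others being control probe sets and probe sets not listed in the deposited annotation used here. Signals were taken as log2, the 2 arrays of plate A1 were averaged in each environment, and 14 units in 4 groups were fitted without covariates with limma 3.58.1 in R 4.3.3 (lmFit, eBayes with an intensity trend). Benjamini-Hochberg adjustment ran over all probe sets. On data simulated with independent noise and no difference the fit made no call. The simulation held no shift between arrays, no Rep2 batch and no arrays from a shared plate, so it cannot tell how many calls those would make. Loci came from the array annotation and symbols from RefSeq TAIR10.1, which held 22036 of 22646 loci. The named genes were HsfA2, the 15 higher and 15 lower called genes with the smallest p (1 locus, separate groups, signal over 100), and in each list up to 6 called members, or the 2 with the smallest p where fewer than 2 were called. Members outside this rule (HSP17.4, HSP17.6A, HSP17.6II, HSP23.6-MITO, HSP101, HSP90.1, ERO1, GSTU19, ABC1, PR1, LBD16, RAP2.4, DIN10, ASN1, SAG29, MCCA, IVD, ADH1 and HB1) were chosen after their values were seen. Members and lists were chosen with earlier results of these data known. Alternatives were other scalings, an offset, a probe set filter, other units, Rep2 in the titles as a block or apart, and each array or plate left out. Promoter and protein sequences were not used here. Array number limits precision, and p-values measure the spread between these plates, which may be partly technical.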

Additional observations from a re-analysis of the deposited data

Results flagged for a closer look

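In 7 of the 117 named genes 1 of the 4 WT plates on the ground lay far from the other 3, its gap to the nearest plate taking more of the group's range than Dixon's 95% limit allows. By Dixon's test chance alone gives such a plate in about 1 group in 20. The share of the range is given first for each. In HSP21 plate A2 stood apart (0.883), with a signal of 19845 against 28695 to 30137 on the others. AR192 (0.837), DHS1 (0.858) and PSBO2 (0.871) each had plate B1 apart. Its signal was 445 against 232 to 258 in AR192, 2202 against 1414 to 1505 in DHS1, an enzyme of aromatic amino acid synthesis, and 57.7 against 232 to 285 in PSBO2, a photosystem II protein. In EXPA1, an expansin, plate A2 stood apart (0.841), with 418 against 228 to 251. In ABCG37 it was plate B2 (0.862), with 504 against 219 to 245, and in NRT1.1 plate A1 (0.858), with 899 against 1206 to 1267. NRT1.1 was called with any of these plates left out, HSP21 without plate A2, and ABCG37 without plate B2, whereas AR192 was not called without plate B1.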

How the results depend on the processing

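HsfA2 kept its call in every alternative, with log2 fold changes of -7.52 to -5.83 when 1 array or plate was left out. The number of probe sets called did not hold as well. Against 241 (123 higher, 118 lower; 51% higher), removing the intensity trend gave 1 (0 higher, 1 lower, 0%), with 1 probe set called for the difference between ground and flight, and an unadjusted p under 0.01 without the trend gave 558 (346, 212, 62%) and 231 for that difference. Dropping the fold limit gave 444 (178, 266, 40.1%). Subtracting array medians gave 156 (12, 144, 7.69%), and moved the median of all probe sets to -0.15, against 0.12 with the deposited scaling and -0.01 after quantile normalization, which gave 257 calls (43.2% higher). Averaging arrays B3 and B3-2 gave 179 (71, 108, 39.7%), WT plates of BRIC B alone gave 165 (84, 81), and the arrays not labelled Rep2 alone 259 (31, 228, 12%), with 17 calls for the difference between ground and flight. The arrays not labelled Rep2 hold a single G_Hsf array, and the Rep2 arrays hold a single G_Wt array. Without both B3 and B3-2 there were 204 calls (50, 154, 24.5%), and 15 for that difference. Leaving out single arrays or plates gave 138 to 266 calls, 62 to 139 higher and 72 to 144 lower, with 0 to 1 for the difference between ground and flight. At1g71695 reversed to -0.26 on the Rep2 arrays alone. The causes were not tested.

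With the Rep number of the titles as a replicate block, 127 probe sets were called (46 higher, 81 lower, 36.2% higher). The 2 arrays of plate A1 correlated at 0.893 across genes, and arrays of different G_Wt plates at 0.869 to 0.924. In G_Hsf, arrays B3 and B3-2 correlated at 0.861, B3 and B5-2 at 0.854, and B3-2 and B5-2 at 0.872. Between G_Hsf and G_Wt arrays the values were 0.834 to 0.868, so the G_Hsf arrays resembled each other little more than they resembled some G_Wt arrays. These values cannot tell what the number stands for, since the 2 arrays of plate A1 share a plate but differ in the number. Low signals limit the measurements, as the residual SD under 100 shows.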
